A study of Mus musculus with 14 samples.

Results

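The 29 genes described here are genes that tissue macrophages are known to express, and they were followed in cultures labelled as bone marrow mesenchymal stromal cells (MSC). They were taken by name out of the 55487 genes in the count tables. The question was whether the 29 genes moved alike after interleukin 1 beta (IL-1β), as the share of one cell type would, or apart from each other. By role they comprise 4 leukocyte genes (Ptprc, Laptm5, Cd53, Cyth4) and 7 genes of macrophage surface and identity (Adgre1, Cd68, Aif1, Mpeg1, Ms4a7, Ms4a6c, Ms4a6d). The 3 complement C1q chains (C1qa, C1qb, C1qc) and 4 receptors for scavenging and uptake (Mrc1, Msr1, Mertk, Cd163) follow. A further 6 encode immune receptors or their adaptors (Tyrobp, Trem2, Lilrb4a, Cd84, Lst1, Ly86), 4 encode lysosomal or endosomal proteins (Lyz2, Ctss, Pld4, Gpnmb), and Maf encodes a transcription factor.

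The MSC were grown from marrow of wild-type C57BL/6 mice for 21 days in DMEM with 10% serum, and then received PBS (2 libraries, replicates 2 and 3) or IL-1β at 5 ng/ml for 72 h (2 libraries, replicates 1 and 2). For comparison, stem cell-enriched LSK cells (Lin-Sca1+c-kit+) and the LK progenitors (Lin-c-kit+), labelled MP, were sorted after lineage depletion from Mx1Cre; Jak2VF/+ mice on C57BL/6, which carry a heterozygous Jak2V617F allele switched on through Mx1Cre, a Cre that is active in blood cells and in other tissues after pI-pC. These mice received PBS (3 libraries per population) or IL-1β at 0.5 μg per dose, 3 doses per week, by intraperitoneal injection for 16 weeks (2 libraries per population). The paper describes this dosing in lethally irradiated C57BL/6 mice that had been given marrow of induced Jak2VF/+ mice. It does not say whether the sequenced cells came from such recipients. By their labels all LSK and LK cells carried the Jak2 allele and no MSC did. Levels in the cultures and in the sorted cells were therefore set side by side without a test. The labels do not say whether the MSC libraries came from separate mice or cultures, so that the p-values below measure the spread between these libraries only.

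Macrophages of the marrow engulf dying cells, expelled erythroid nuclei and debris, digest them in lysosomes, and present or secrete molecules that guide other immune cells. They adhere to plastic, and cultures of marrow stroma that are not depleted of hematopoietic cells are known to hold them. IL-1β acts through its receptor, MyD88 and NF-κB in stromal and in myeloid cells, and can reach macrophages directly or through cytokines that stromal cells secrete.

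The regulatory sequence in front of a few of these genes is shown because they moved in different directions while all are genes of blood cells. PU.1 is a transcription factor of myeloid and B cells that many macrophage promoters bind. Each sequence holds the 250 bases before the RefSeq gene start (GRCm38.p6), written 5′ to 3′ on the strand of the gene. Capitals mark GAGGAA, the core that PU.1 prefers, or TTCCTC where it lies on the other strand. Ms4a6c (chr19:11469118-11469367, plus strand) and Pld4 (chr12:112760405-112760654, plus strand) rose in the cultures, Trem2 (chr17:48346151-48346400, plus strand) fell, and Cd53 (chr3:106790150-106790399, minus strand) is a leukocyte gene that did not pass the test.
Ms4a6c: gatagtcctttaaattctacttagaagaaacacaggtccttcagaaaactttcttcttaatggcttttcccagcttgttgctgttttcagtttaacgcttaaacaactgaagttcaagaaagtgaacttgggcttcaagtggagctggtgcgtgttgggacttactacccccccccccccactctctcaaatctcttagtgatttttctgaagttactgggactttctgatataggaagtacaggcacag
Pld4: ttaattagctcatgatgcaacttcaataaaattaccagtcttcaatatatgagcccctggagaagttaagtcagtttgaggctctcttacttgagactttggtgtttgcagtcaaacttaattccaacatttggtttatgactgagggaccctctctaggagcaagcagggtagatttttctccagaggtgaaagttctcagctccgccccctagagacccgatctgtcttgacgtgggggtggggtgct
Trem2: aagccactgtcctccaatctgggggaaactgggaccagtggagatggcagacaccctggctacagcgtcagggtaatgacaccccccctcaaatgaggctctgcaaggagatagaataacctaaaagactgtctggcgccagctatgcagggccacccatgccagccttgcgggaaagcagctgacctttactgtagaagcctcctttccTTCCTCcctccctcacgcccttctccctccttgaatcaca
Cd53: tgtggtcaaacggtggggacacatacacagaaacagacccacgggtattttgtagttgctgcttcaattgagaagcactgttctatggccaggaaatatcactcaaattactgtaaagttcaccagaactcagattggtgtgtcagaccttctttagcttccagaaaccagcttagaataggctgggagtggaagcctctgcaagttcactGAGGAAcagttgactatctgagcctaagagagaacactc

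RefSeq promoter windows were matched for 21 of the 29 genes, and not for Lst1, C1qa, Lilrb4a, Msr1, Tyrobp, Maf, Adgre1 and Ms4a6d. GAGGAA was found on either strand in at least 1 window of 10 of the 21 genes (Aif1, C1qb, C1qc, Cd53, Cd68, Ctss, Laptm5, Mrc1, Ptprc and Trem2), and 25.9% of the 27025 genes with a window held it. It began 40 bases before the start in Trem2 and 39 bases before it in Cd53. The longer form GAGGAAGT, which contains the core, was found in C1qc alone and in 2.79% of all genes. Ms4a6c and Pld4 held neither form in this window, and the same was true of Lyz2, Mertk and Ly86, which also rose. Aif1 and Mrc1 held GAGGAA and rose as well, so the windows shown do not stand for all genes that moved. These motifs were chosen after expression values were known, and a match describes letters in a window, not binding.

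The 14 libraries held between 4393233 and 30871055 counted read pairs, and the MSC libraries 5834909 (PBS 2), 13155033 (PBS 3), 30871055 (IL-1β 1) and 11681794 (IL-1β 2). In LSK and LK cells, each IL-1β library was shallower than each PBS library of its population. Among the MSC, PBS 3 stood apart: Xist, the RNA that coats the inactive X chromosome of females, had 0 read pairs in PBS 3 and 325, 535 and 2103 in PBS 2, IL-1β 2 and IL-1β 1, while the Y-linked genes Ddx3y, Kdm5d, Uty and Eif2s3y were counted in all 4 libraries. The PBS pair differed by more than 2-fold at 1068 of 13239 tested genes and the IL-1β pair at 48, so that the PBS libraries were the more variable. Counts without PBS 3 are therefore given beside the main ones.

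The cultures held RNA of both stromal and macrophage genes. The 29 genes took 4.30% (PBS 2) and 3.89% (PBS 3) of all read pairs with PBS, and 5.80% (IL-1β 1) and 5.79% (IL-1β 2) with IL-1β. Lyz2 alone took 0.733% and 0.485% of read pairs in PBS 2 and PBS 3, and 1.96% and 2.02% in IL-1β 1 and IL-1β 2. Most of the rise of the sum lay in this gene. Of 15 mesenchymal genes, 13 had enough counts to be tested, and together they took 0.253% to 0.483% of read pairs with PBS and 0.538% to 0.589% with IL-1β. The collagen genes Col1a1, Col1a2 and Col3a1 and the matrix gene Sparc led this list. Lepr, the leptin receptor that marks marrow stromal cells in vivo, and Nt5e, which encodes CD73, were below the filter, at no more than 0.53 and 1.15 CPM (counts scaled to the library size, not to length). In bulk RNA, fewer cells of a type and less RNA per cell cannot be told apart.

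**Figure D1:**
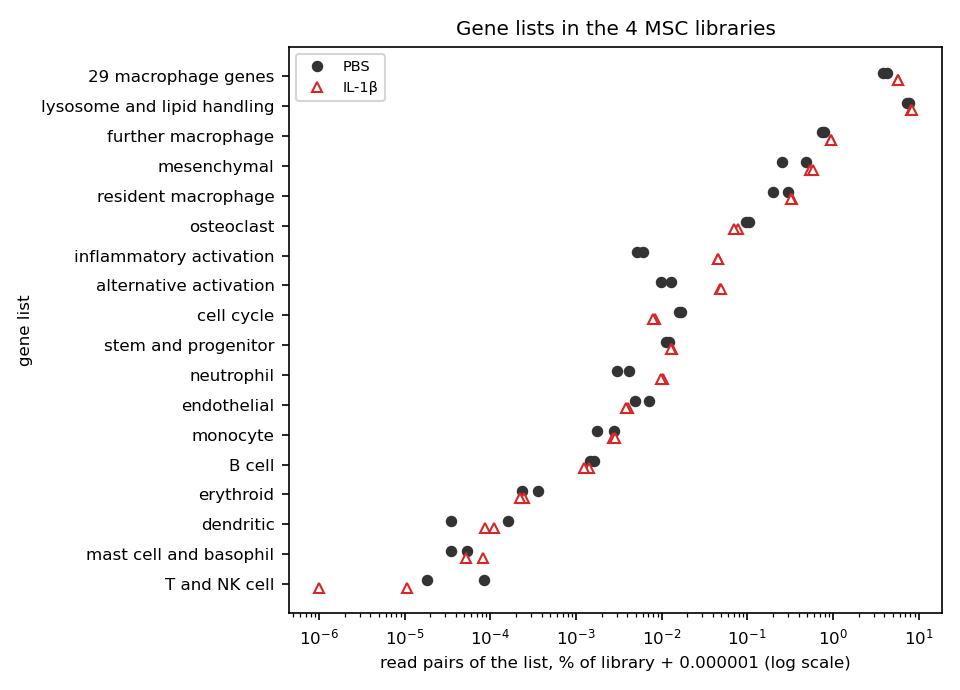
Share of each MSC library's read pairs taken by the 29 macrophage genes and by 17 other gene lists; the horizontal axis is on a log scale in percent, filled circles are the 2 PBS and open triangles the 2 IL-1β libraries. The macrophage genes took 3.89% to 5.80%, the mesenchymal list 0.253% to 0.589%, and the T and NK cell, mast cell and basophil, dendritic and erythroid lists lay far to the left of both.

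Levels of the 29 genes are given as FPKM, read pairs scaled to the exonic length of the gene and to the TMM-normalized library size, which allows genes to be compared with each other. All but Cd163 were abundant in the cultures, between 11.9 FPKM (Lilrb4a in PBS 3) and 15790 FPKM (Lyz2 in IL-1β 2). Cd163, the hemoglobin scavenger receptor of many tissue macrophages, had 2, 0, 0 and 2 read pairs in PBS 2, PBS 3, IL-1β 1 and IL-1β 2, at or under the 3 counts taken as the detection limit, and was not tested. The other 28 genes lay above 80% of the detected genes of each MSC library, with the lowest percentile, 80.1, for Lilrb4a.

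After IL-1β, 10 of the 28 tested genes rose and 1 fell. Calls needed 2 things: a log2 fold change beyond 0.5 in either direction, and a Benjamini-Hochberg adjusted p under 0.05 in edgeR's quasi-likelihood test over all 13239 tested genes. Over all tested genes 7.14% were called higher and 4.31% lower. The 10 genes that rose were Ms4a6c, Ms4a6d, Lyz2, Pld4, Adgre1, Mertk, Mrc1, Aif1, Ly86 and C1qa, and the gene that fell was Trem2. In 21 of the 28 genes the 2 treatments did not overlap with IL-1β higher, and in 5 with IL-1β lower, against 31.3% and 29.8% of all tested genes. Without PBS 3 the counts were 13 higher and 1 lower, with Cd68 called lower and Trem2 not called. Without PBS 2 they were 14 higher and 1 lower. With upper-quartile factors Mrc1 and Ly86 were not called, which left 8 higher and 1 lower. Without either of the IL-1β libraries no gene of the 28 was called, and the spread then came from the PBS pair alone, which the single IL-1β library was assumed to share.

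The fold changes of the genes were spread out. Their log2 fold changes ran from -0.68 (Trem2) to 1.94 (Ms4a6c), with 22 above 0 and 6 below, a median of 0.49 and an SD over genes of 0.71. The median standard error of a single gene was 0.14, and all tested genes had a median log2 fold change of 0.00 and an SD of 0.79. By SD the spread of the 28 genes was no wider than that of all tested genes, but by quartiles it was wider. The lower and upper quartiles were 0.18 and 1.04 for the 28 genes and -0.30 and 0.295 for all tested genes. On the linear scale the range was from 0.623-fold to 3.83-fold.

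**Figure D2:**
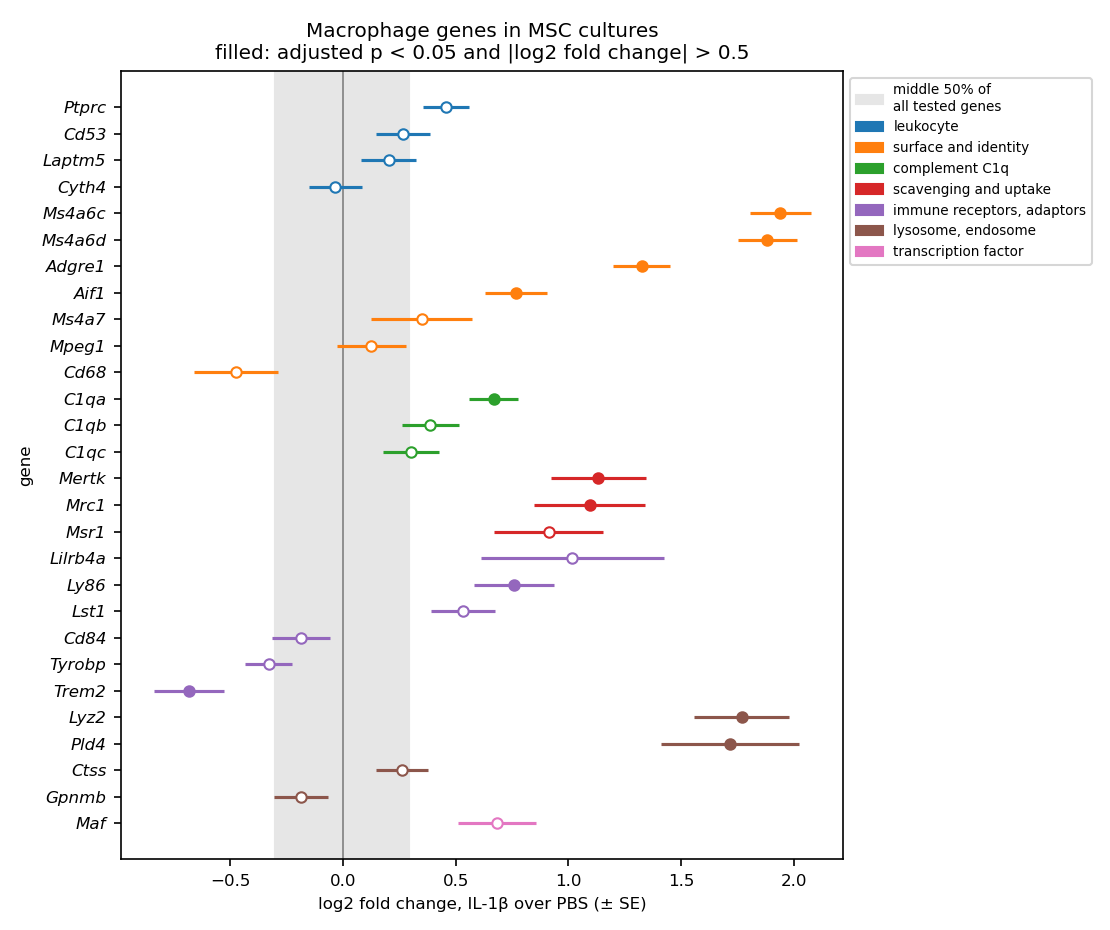
Log2 fold change of each of the 28 tested macrophage genes, IL-1β over PBS in MSC cultures (2 libraries each), with standard error, coloured by role; filled points passed both thresholds. Genes of the same role lie apart, such as Ms4a6c at 1.94 and Cd68 at -0.47 among the surface genes, and the 4 leukocyte genes lie between -0.03 and 0.46.

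None of the 4 leukocyte genes, which most white blood cells share, was called. Ptprc, which encodes the tyrosine phosphatase CD45, was at 16.2 and 16.4 FPKM in PBS 2 and PBS 3 and at 22.2 and 22.6 FPKM in IL-1β 1 and IL-1β 2. Its IL-1β libraries were higher, with a log2 fold change of 0.46 ± 0.10 (SE, edgeR adjusted p = 0.0406), below the fold threshold. Laptm5, a lysosomal membrane protein of blood cells, was at 376 and 431 FPKM with PBS and at 466 and 463 FPKM with IL-1β (0.20 ± 0.12, adjusted p = 0.319). Cd53, a tetraspanin of leukocytes, was at 271 and 236 FPKM with PBS and at 316 and 294 FPKM with IL-1β (0.27 ± 0.12, adjusted p = 0.207). In both genes the IL-1β libraries lay above the PBS libraries by less than the test could call. Cyth4, an exchange factor for Arf GTPases, was at 58.7 and 67.6 FPKM with PBS and at 61.6 and 61.9 FPKM with IL-1β, and its libraries overlapped (-0.03 ± 0.12, adjusted p = 0.885).

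Among the surface and identity genes 4 of 7 rose. Ms4a6c, one of a family of membrane-spanning proteins of myeloid cells, was at 45.8 and 37.5 FPKM in PBS 2 and PBS 3 and at 164 and 155 FPKM in IL-1β 1 and IL-1β 2. It had the largest rise, a log2 fold change of 1.94 ± 0.13 (edgeR adjusted p = 0.00185). Ms4a6d, from the same cluster on chromosome 19, was at 104 and 93.4 FPKM with PBS and at 390 and 337 FPKM with IL-1β (1.88 ± 0.13, adjusted p = 0.00187). Of the 50-base stretches in the exons of Ms4a6c, 10.5% also occur in other genes, most of them in Ms4a6b, and 2.54% for Ms4a6d, so part of their read pairs could not be assigned. Ms4a7, which lies 133220 bases from Ms4a6c, did not pass the test, at 240 and 151 FPKM with PBS and 242 and 257 FPKM with IL-1β. The ratio of Ms4a6d to Ms4a7 read pairs was 0.169 and 0.240 in the PBS libraries, against 0.629 and 0.511 after IL-1β.

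Adgre1, which encodes the F4/80 antigen used to define mouse macrophages, was at 236 and 202 FPKM in PBS 2 and PBS 3 and at 539 and 557 FPKM in IL-1β 1 and IL-1β 2. It rose by 1.32 ± 0.13 on the log2 scale (edgeR adjusted p = 0.00468). Aif1, which encodes the actin-binding protein Iba1, was at 34.0 and 31.5 FPKM with PBS and at 49.9 and 61.7 FPKM with IL-1β (0.77 ± 0.14, adjusted p = 0.0251). Both are widely used macrophage markers, and their libraries did not overlap between treatments. Cd68, a lysosomal glycoprotein used for the same purpose, was at 1208 and 865 FPKM with PBS and at 803 and 689 FPKM with IL-1β. It pointed the other way and was not called (-0.47 ± 0.19, adjusted p = 0.158). Mpeg1, the pore-forming perforin-2 of phagosomes, was at 772 and 599 FPKM with PBS and 751 and 746 FPKM with IL-1β, with overlapping libraries. There were 0.504 and 0.6002 Adgre1 read pairs for each Cd68 read pair with PBS, and 1.73 and 2.08 with IL-1β.

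The 3 chains of C1q, the recognition unit of the classical complement pathway, lie within a few kilobases of each other on chromosome 4. Their log2 fold changes lay between 0.30 and 0.67, and only C1qa was called. C1qa was at 1161 and 1211 FPKM in PBS 2 and PBS 3 and at 1868 and 1904 FPKM in IL-1β 1 and IL-1β 2 (0.67 ± 0.11, edgeR adjusted p = 0.0195). C1qb was at 2625 and 2256 FPKM with PBS and at 3204 and 3178 FPKM with IL-1β (0.39 ± 0.13, adjusted p = 0.107). C1qc was at 938 and 813 FPKM with PBS and at 1085 and 1073 FPKM with IL-1β (0.30 ± 0.12, adjusted p = 0.169). The treatments did not overlap in any of the 3 chains.

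Of the receptors for scavenging and uptake, 2 of the 3 tested rose. Mrc1, the mannose receptor, was at 47.9 and 28.7 FPKM in PBS 2 and PBS 3 and at 82.0 and 81.1 FPKM in IL-1β 1 and IL-1β 2 (1.09 ± 0.25, edgeR adjusted p = 0.0469). Mertk, a receptor tyrosine kinase for the uptake of apoptotic cells, was at 20.2 and 13.2 FPKM with PBS and at 38.3 and 34.3 FPKM with IL-1β (1.13 ± 0.21, adjusted p = 0.0296). Both genes differed between the PBS libraries more than between the IL-1β libraries. Msr1, the class A scavenger receptor, was at 22.6 and 37.5 FPKM with PBS and at 57.7 and 55.8 FPKM with IL-1β (0.91 ± 0.24, adjusted p = 0.0689).

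The immune receptors and adaptors split. Trem2, a lipid-sensing receptor of macrophages and microglia, was at 266 and 345 FPKM in PBS 2 and PBS 3 and at 184 and 197 FPKM in IL-1β 1 and IL-1β 2. Its log2 fold change was -0.68 ± 0.16 (edgeR adjusted p = 0.0443), which makes it the 1 gene of the 28 that fell. Tyrobp, which encodes DAP12, the adaptor through which Trem2 signals, was at 1164 and 1167 FPKM with PBS and at 918 and 937 FPKM with IL-1β. It was lower in both IL-1β libraries but was not called (-0.33 ± 0.10, adjusted p = 0.0966). Ly86, the secreted partner of the receptor Cd180, rose from 19.1 and 26.1 FPKM with PBS to 41.7 and 35.1 FPKM with IL-1β (0.76 ± 0.18, adjusted p = 0.0485). Lst1, Lilrb4a and Cd84 had log2 fold changes of 0.53, 1.02 and -0.19 and did not pass the test. For Lilrb4a, an inhibitory receptor, 46.7% of 50-base stretches occur in other genes, and its level is uncertain.

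Of the lysosomal and endosomal genes, 2 of 4 rose. Lyz2, the lysozyme of macrophages and neutrophils and the gene of the 29 with the highest mean level, was at 5413 and 3643 FPKM in PBS 2 and PBS 3 and at 15080 and 15788 FPKM in IL-1β 1 and IL-1β 2. It was 3.41-fold higher with IL-1β (log2 fold change 1.77 ± 0.21, edgeR adjusted p = 0.00865). Its paralog Lyz1 shares 15.4% of its 50-base stretches and was counted at 4 to 114 read pairs per library. Pld4, an endolysosomal nuclease, was at 53.4 and 28.5 FPKM with PBS and at 134 and 133 FPKM with IL-1β (1.72 ± 0.31, adjusted p = 0.0318). Ctss, the protease cathepsin S that processes antigen, had the next highest mean level and was above Lyz2 in PBS 3, at 4262 and 4327 FPKM with PBS and at 5041 and 5259 FPKM with IL-1β (0.26 ± 0.11, adjusted p = 0.193). Gpnmb, a glycoprotein of phagolysosomes, was at 1438 and 1541 FPKM with PBS and at 1311 and 1310 FPKM with IL-1β, slightly lower in both (-0.19 ± 0.12, adjusted p = 0.351). There were 0.760 and 0.478 Lyz2 read pairs for each Gpnmb read pair with PBS, and 2.32 and 2.43 with IL-1β. Maf, a transcription factor that sustains C1q and other genes of tissue macrophages, was at 29.02 and 40.5 FPKM with PBS and at 55.7 and 55.9 FPKM with IL-1β (0.68 ± 0.17, adjusted p = 0.0574), just short of a call.

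To ask what moved relative to the amount of leukocyte RNA, the 4 libraries were scaled by their read pairs on Ptprc, Laptm5, Cd53 and Cyth4 in place of the library size. A gene that follows the sum of these 4 genes stays at 0 on this scale. The 4 genes took 0.271% and 0.289% of read pairs in PBS 2 and PBS 3, and 0.315% and 0.306% in IL-1β 1 and IL-1β 2. Laptm5 held most of their read pairs, such as 21699 of 37957 in PBS 3 and 53888 of 97348 in IL-1β 1. The log2 fold changes of Ptprc and Cyth4 on this scale were 0.25 and -0.24. On this scale 5 of the 24 other tested genes were higher and 2 were lower, while 4.38% of all tested genes were called higher and 11.3% lower. The 5 were Ms4a6c (1.73 ± 0.16), Ms4a6d (1.67 ± 0.15), Lyz2 (1.55 ± 0.24), Pld4 (1.49 ± 0.34) and Adgre1 (1.11 ± 0.15), as log2 fold changes with standard errors. The 2 were Trem2 (-0.88 ± 0.14) and Tyrobp (-0.54 ± 0.12). The edgeR adjusted p of these 7 genes lay between 0.00398 (Ms4a6d) and 0.044 (Pld4). The error of the 4 reference genes as a scale is not part of these standard errors. With Laptm5 left out of the reference 7 genes were higher (Aif1 and Mertk added). With Cd53 left out 4 were higher, and Pld4 was not called. C1qa, Mertk, Mrc1, Aif1 and Ly86, which rose against the library size, were not called on this scale, at 0.46, 0.91, 0.87, 0.56 and 0.56. Without PBS 3, 10 genes were higher and 3 lower, without PBS 2 they were 10 and 1, and without IL-1β 1 or IL-1β 2, Ms4a6c and Ms4a6d were higher and none was lower.

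**Figure D3:**
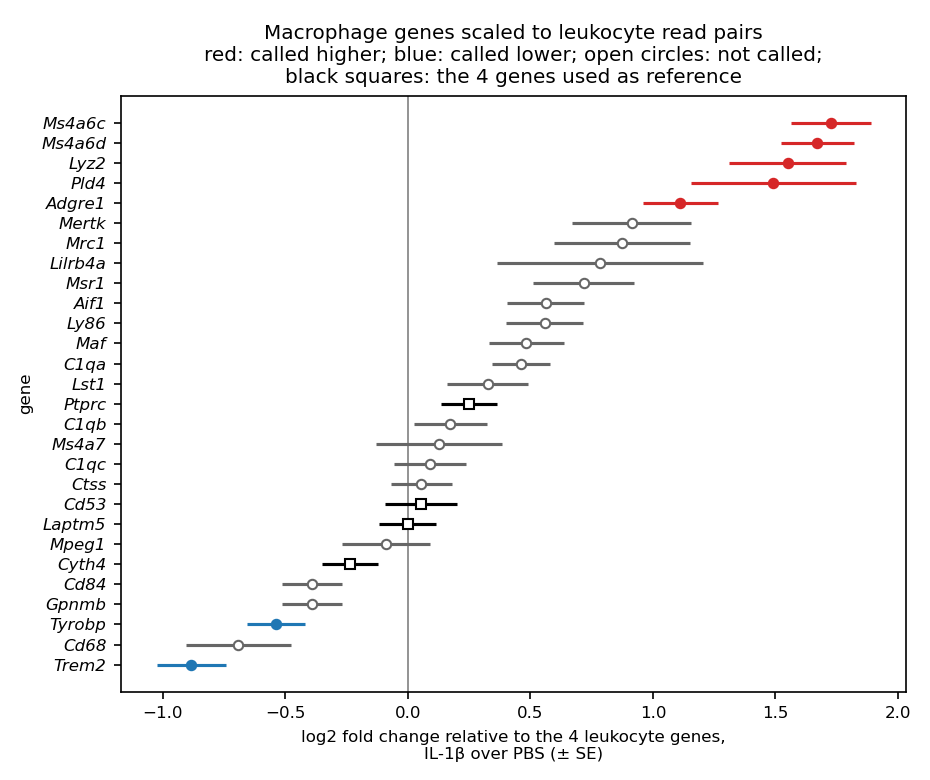
Log2 fold change with standard error, IL-1β over PBS, after scaling the 4 MSC libraries to the read pairs of 4 leukocyte genes (black squares). The order runs from Trem2 at -0.88 to Ms4a6c at 1.73, with 5 genes called higher (red) and 2 called lower (blue).

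Genes of macrophage activation outside the 29 moved as well. Of 13 tested genes of inflammatory activation, 10 rose and none fell, while 7.14% of all tested genes were called higher and 4.31% lower. Nos2, the inducible nitric oxide synthase, was at 0.167 and 0.150 CPM in PBS 2 and PBS 3 and at 80.9 and 75.9 CPM in IL-1β 1 and IL-1β 2 (log2 fold change 8.91 ± 0.22, edgeR adjusted p = 0.00021). Nos2 had 1 and 2 read pairs with PBS, under the 3 counts taken as the detection limit, so the size of its rise is uncertain beyond the printed standard error. Acod1, which makes itaconate, had 0 and 0.150 CPM with PBS (0 and 2 read pairs) and 17.4 and 21.4 CPM with IL-1β. Il1b and Il6 were at no more than 1.33 and 0.451 CPM with PBS, and at 64.5 and 75.8 CPM and at 30.8 and 28.6 CPM with IL-1β. Stromal cells can also express Il6 and Nos2, so these counts do not belong to macrophages alone. Of the 3 tested genes of alternative activation, Il4ra, a receptor chain for interleukin 4, rose (2.18 ± 0.14, adjusted p = 0.00165).

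Of 10 tested genes of resident macrophages, 5 rose and none fell. The lowest log2 fold change was that of Folr2, -0.42. Cd5l was at 1562 and 771 CPM in PBS 2 and PBS 3 and at 1159 and 1109 CPM in IL-1β 1 and IL-1β 2. Timd4 and Lyve1, also on this list, had 1 and 2 read pairs in IL-1β 1 and 0 in each other MSC library. Siglec1, a sialic acid receptor of marrow and lymph node macrophages, was at 15.8 and 16.5 CPM with PBS and 127 and 116 CPM with IL-1β (2.90 ± 0.12, edgeR adjusted p = 0.00058). Marco, a scavenger receptor, was at 0 and 0.376 CPM with PBS (0 and 5 read pairs) and at 21.0 and 25.2 CPM with IL-1β. Cd209f, a C-type lectin, was at 0 and 0.150 CPM with PBS (0 and 2 read pairs) and at 8.45 and 8.73 CPM with IL-1β. Of 15 further macrophage genes, 6 rose and 2 fell. Csf1r, the receptor for the growth factor CSF1, was at 1192 and 682 CPM with PBS and at 2181 and 2265 CPM with IL-1β (1.25 ± 0.27, adjusted p = 0.0431). Cd33 and Fcgr1, a sialic acid receptor and the high-affinity IgG receptor, rose by 1.33 and 1.29 on the log2 scale. Rgs1 fell by 1.76 and Clec7a by 0.69 on the log2 scale, and Clec7a is the receptor for fungal β-glucan.

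Of 17 genes of lysosomes and lipid handling, 3 rose (Abca1, Ctsl and Spp1) and 3 fell (Plin2, Cd9 and Lgals3). Plin2, which coats lipid droplets, was at 1075 and 1356 CPM with PBS and at 538 and 532 CPM with IL-1β (-1.18 ± 0.15, edgeR adjusted p = 0.00935). Abca1, the cholesterol exporter, moved the other way, from 110 and 108 CPM to 365 and 327 CPM (1.67 ± 0.11, adjusted p = 0.00176). Lgals3, Cd9, Plin2 and Trem2, which fell together here, are often reported together with Gpnmb and Spp1 in lipid-laden macrophages, but Spp1 rose (0.86 ± 0.14, adjusted p = 0.021) and Gpnmb did not pass the test.

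Other cell types were read from their own lists. Of the 6 T and NK cell genes and the 5 mast cell and basophil genes none had enough counts to be tested, and of the 6 B cell, 6 dendritic and 6 erythroid genes 1 each was tested and not called. Of 4 tested neutrophil genes 3 rose (Camp, Mmp8 and Csf3r), and the list of 13 took 0.00303% to 0.00415% of read pairs with PBS and 0.0098% to 0.0105% with IL-1β. Csf3r alone held 219 of 242 read pairs of the list in PBS 2 and 352 of 398 in PBS 3. It held 2669 of 3239 in IL-1β 1 and 936 of 1145 in IL-1β 2. S100a9, Ngp and Retnlg had 0 read pairs in every MSC library. Of 5 tested monocyte genes Plac8 rose, and Ly86, Lyz2 and Ms4a6c are expressed by monocytes as well. Of 7 tested osteoclast genes Acp5 rose and Itgb3 fell. Of 13 tested mesenchymal genes 1 was called higher, Dcn, which encodes the matrix proteoglycan decorin (1.60 ± 0.16, edgeR adjusted p = 0.00513). Col3a1 had the largest log2 fold change of this list, 2.04, but was not called. It was at 510 and 179 CPM in PBS 2 and PBS 3 and at 1324 and 1496 CPM in IL-1β 1 and IL-1β 2. The paper reports Col3a1 as significantly higher in its own RNA-seq fit, and reports a rise in MSC by RT-qPCR and immunofluorescence as well. Of 8 cell cycle genes 3 fell, namely Mki67, Ccna2 and Birc5, and the list took 0.0161% and 0.0170% of read pairs with PBS and 0.00806% and 0.0083% with IL-1β. The part of these shifts in the changes of the macrophage genes was not tested.

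In the sorted stem and progenitor cells the 29 genes were at lower levels. They took 0.132% to 0.153% of read pairs in LSK cells with PBS and 0.0802% to 0.0839% with IL-1β, and 0.0538% to 0.077% in LK cells with PBS and 0.0614% to 0.0793% with IL-1β. For 28 of the 29 genes the lowest MSC library lay above each of the 10 LSK and LK libraries, and Cd163 was the exception. The ranges came closest for Ptprc and Ms4a6c. Ptprc lay between 6.33 and 11.01 FPKM in the 5 LSK libraries and between 2.76 and 6.85 FPKM in the 5 LK libraries. Lyz2 lay between 43.0 and 96.8 FPKM in LSK and between 20.5 and 46.9 FPKM in LK cells, and Adgre1 was at or under 0.784 FPKM in all 10. These libraries come from other mice and from cells of another genotype, which were handled differently.

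**Figure D4:**
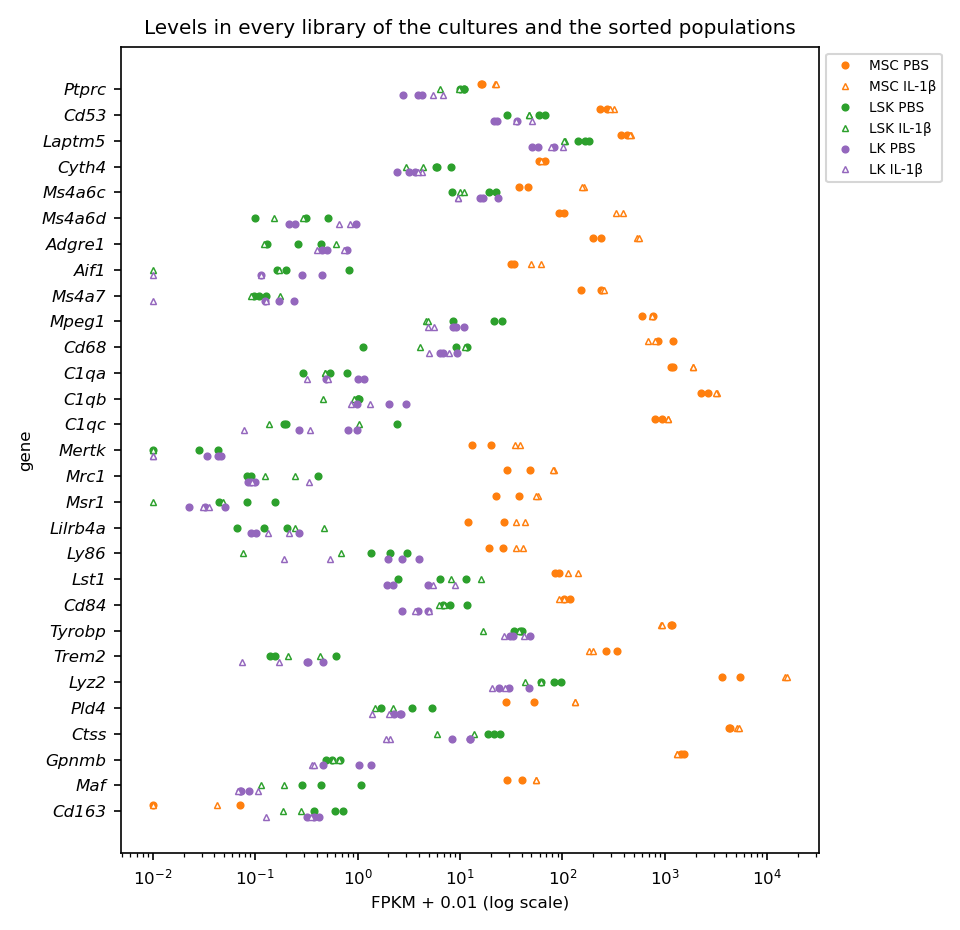
FPKM of each of the 29 genes in all 14 libraries, on a log scale with 0.01 added, for MSC, LSK and LK libraries with PBS (filled circles) and IL-1β (open triangles). The MSC points lie to the right of all LSK and LK points for each gene except Cd163.

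After IL-1β in vivo, no gene of the 23 tested in LSK cells was called by edgeR, against 0.32% of all tested genes called higher and 0.312% lower. At an unadjusted p under 0.05 there were 6 (Mpeg1, Ly86, Ctss, Cyth4, Laptm5 and Maf), all lower. DESeq2 called Mpeg1 and Ly86 lower, and limma-voom called none. Mpeg1 was at 21.4, 25.6 and 8.56 FPKM in the PBS libraries 1 to 3 and at 4.63 and 4.86 FPKM in the IL-1β libraries 1 and 2 (log2 fold change -1.97 ± 0.45, edgeR adjusted p = 0.0828). Its treatments did not overlap, and PBS 3 was the lowest of the PBS libraries. Without PBS 3, Mpeg1 was called lower. Among the PBS libraries, PBS 2 stood apart. It differed by more than 2-fold from PBS 1 at 2951 and from PBS 3 at 3061 of 13132 tested genes, while PBS 1 and PBS 3 differed at 810. Without PBS 2, 480 genes over all tested genes were called, against 83 with it, and still none of the macrophage genes. Of the 23 genes, 1 had all IL-1β libraries higher and 9 had all of them lower, against 18.2% and 21.4% of all tested genes. Over the 23 genes the median log2 fold change was -0.62, beside -0.06 over all tested genes. This median is the value of C1qb, a gene of few read pairs (14 to 19 per PBS library, 4 in each IL-1β library). Ly86, Cd163, Maf, C1qc and Mrc1, all below 0, and Adgre1, above 0, also had at most 10 read pairs in either IL-1β library. The size of the shift is therefore uncertain, and the part of such genes in it was not tested in these LSK libraries. In the same libraries the dendritic list took 0.0261% to 0.0293% of read pairs with PBS and 0.00287% and 0.00627% with IL-1β, and the neutrophil list 0.221% to 0.346% and then 0.953% and 1.07%. Their part in these values was not tested.

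In LK cells 4 of 23 tested genes fell and 1 rose, against 2.57% of all tested genes called lower and 6.77% higher. Ctss was at 12.6, 8.36 and 12.5 FPKM in the PBS libraries 1 to 3 and at 2.05 and 1.89 FPKM in the IL-1β libraries 1 and 2 (-2.49 ± 0.31, edgeR adjusted p = 0.00394). Ly86 was at 2.69, 1.99 and 3.96 FPKM with PBS and at 0.182 and 0.529 FPKM with IL-1β, which were 5 and 12 read pairs (-3.04 ± 0.52, adjusted p = 0.0113). In both genes the IL-1β libraries lay well below those with PBS. Of the 23 genes, 7 had all IL-1β libraries lower, some by little, and 3 had all of them higher, against 22.2% and 23.5% of all tested genes. Ms4a6c was at 15.6, 16.8 and 23.3 FPKM with PBS and at 9.62 and 9.54 FPKM with IL-1β (-0.96 ± 0.20, adjusted p = 0.0225). Mpeg1 was at 9.05, 8.54 and 10.8 FPKM with PBS and at 4.92 and 5.62 FPKM with IL-1β (-0.85 ± 0.16, adjusted p = 0.016). Ptprc rose, from 2.76, 3.93 and 4.24 FPKM with PBS to 6.85 and 5.43 FPKM with IL-1β (0.75 ± 0.19, adjusted p = 0.0479).

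The LK calls rest on few libraries. Without IL-1β 1 none of the 5 was called, without IL-1β 2 Ctss and Ly86 were, and Ptprc was not called without PBS 1 or PBS 2. Without PBS 3, 5 genes were called higher and 6 lower. The dendritic list of 6 genes took 0.0063% to 0.00665% of LK read pairs with PBS and 0.00216% and 0.00261% with IL-1β (3 tested, 1 called lower), and its part in the falls of Ctss, Ly86, Ms4a6c and Mpeg1 was not tested. The neutrophil list took 0.436% to 0.96% of LK read pairs with PBS and 1.79% and 2.10% with IL-1β.

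**Figure D5:**
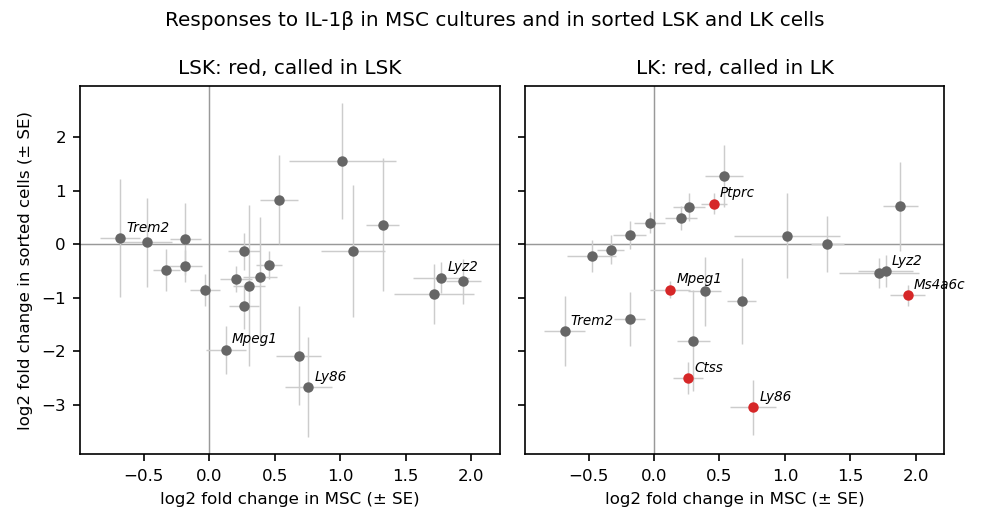
Log2 fold change with standard error of macrophage genes in MSC cultures (horizontal) against that in LSK cells (left) and LK cells (right); each point is a gene tested in both, red where called in the sorted population. Ly86 and Ms4a6c were called higher in MSC and lower in LK cells, and no gene was called in LSK cells.

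Side by side, Ms4a6c had a log2 fold change of 1.94 in MSC, -0.96 in LK and -0.69 in LSK cells, and Ly86 of 0.76, -3.04 and -2.66. Lyz2 stood at 1.77, -0.50 and -0.62, and was called in MSC only, a difference that was not tested. The response of LSK cells was tested against that of LK cells as an interaction, for 25 of the 29 genes. None was called by edgeR, against 0.0289% of all tested genes in either direction, with 5 at an unadjusted p under 0.05 (Laptm5, Ptprc, Cyth4, Ctss and Mpeg1) and 1 called by DESeq2 (Laptm5). Ptprc and Cyth4 did not overlap between treatments in either population, with IL-1β lower in LSK and higher in LK cells, and their interaction had an adjusted p of 0.179 and 0.194.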

How the data were processed

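The 29 genes, the other gene lists and the tests were chosen with earlier results of these data known. The values the authors deposited are raw counts of read pairs per gene for 14 libraries. Per the file headers and the submitters' processing notes, reads were trimmed with fastp 0.20.0, aligned with HISAT2 2.0.1 to GRCm38 and counted with featureCounts 2.0.2 in reverse-stranded mode, and the methods name GenomicAlignments. Libraries were depleted of rRNA. Read pairs shared between genes are not counted by default, which lowers paralogs. Symbols were found for 55141 of 55487 identifiers.

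Each population was tested with edgeR 4.0.16 in R 4.3.3 (filterByExpr, TMM, robust quasi-likelihood test, treatment only), with Benjamini-Hochberg adjustment over all tested genes (13239 in MSC, 13132 in LSK, 12835 in LK). The thresholds were the study's, 0.05 for the adjusted p and 0.5 for the size of the log2 fold change (for the interaction, the adjusted p alone). The standard error is the log2 fold change divided by the square root of F. FPKM used the exonic lengths in the files. The standard errors come from the fit and include the spread between libraries. The limit of 3 counts covers counting error only, since PCR copies are not independent molecules. The tests were checked on simulated counts. All 29 genes are accounted for, and full values are given for called genes, the 3 most abundant, the C1q chains, the leukocyte genes and the extremes. Of other lists, the rule named called genes, at most 4 each by size of change, and Clec7a, Spp1 and Lgals3 were named beyond it. Ratios between pairs of genes, the motifs and other names were chosen after values were seen.

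Alternatives were DESeq2 1.42.0, limma-voom (limma 3.58.1), other size factors, other filters, other reference genes, the replicate block and each library left out. With PBS, deviations of LSK and LK libraries of the same replicate number correlated at r of 0.125 to 0.459. Libraries of different numbers reached 0.170 (LSK PBS 2 with LK PBS 1), above the 0.125 of LSK PBS 2 with LK PBS 2. With IL-1β, 2 libraries per population allow only 1 size of r (0.122 or -0.122). These values therefore do not settle whether the numbers pair the populations. A further MSC library named in a file header without a column of counts was not analysed here. Figures were drawn with matplotlib 3.10.9.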

Additional observations from a re-analysis of the deposited data

How the results depend on the processing

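With 2 libraries per treatment in MSC and the IL-1β pair much closer than the PBS pair, the calls depend on which library is left out. Left out in turn, the MSC libraries gave 0 to 14 genes higher and 0 to 1 lower, and a median log2 fold change of 0.41 to 0.55. Upper-quartile factors gave 8 higher and 1 lower, DESeq2 and limma-voom 12 and 1 each, and no filter on low counts 13 and 1. Relative to the leukocyte genes the range was 2 to 10 higher and 0 to 3 lower. With the geometric mean of the tested genes as reference 5 were lower, and with limma-voom 9 were higher. In LSK cells 2 genes were lower with DESeq2 and 2 without a filter on low counts, and leaving out a library gave 0 to 1 lower. In LK cells limma-voom gave 0 higher and 2 lower, no filter gave 2 higher and 6 lower (Gpnmb and Lyz2 added), and leaving out a library gave 0 to 5 higher, 0 to 6 lower and a median log2 fold change of -0.61 to -0.094. The interaction gave 1 gene with DESeq2 and 1 without a filter. Cyth4 in MSC turned from -0.03 to 0.0075 without a filter and ranged from -0.13 to 0.071 with a library left out, and Mpeg1 in MSC from -0.046 to 0.32, none of them called. The cause of these changes was not tested.

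No paired analysis was possible because the MSC treatments share 1 replicate number. In LSK and LK cells the PBS and IL-1β libraries share only a number (2 pairs each, r of -0.124 to 0.168). With the replicate block 1 gene was lower in LSK cells and 4 were higher and 5 lower in LK cells (Gpnmb added), and the interaction still had none.

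Of the single genes followed, 359 alternative values kept direction and call, 51 lost the call, 21 gained it and 3 reversed. Where a treatment had few counts, as Ly86 with IL-1β in LK cells (5 and 12 read pairs), depth limits the fold change.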
